A study of Drosophila melanogaster with 40 samples.

Results

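The 10 genes described here encode components of Toll and IMD signalling, the main NF-κB pathways of insect immunity. They are Tl, spz, SPE, Myd88, pll, cact, dl, Dif, imd and Rel, chosen by gene name as 10 of the 23932 features in the read count table. The table covers legs of male Drosophila melanogaster, sequenced as strand-specific libraries of polyadenylated RNA, with 40 libraries in 10 groups of 4 and legs of 15 flies pooled in each library. The control strain was w1118, and the other strain, here Hsp70-null, carries the deficiencies Df(3R)Hsp70A and Df(3R)Hsp70B in the w1118 background, which delete 6 Hsp70 heat shock genes on chromosome arm 3R. Each strain was sampled untreated at 7, 23 and 47 days after eclosion. A further group of each strain was taken at day 7 directly after 2 h of exercise, and another at day 23 after training on a rotating device for 19 days, 24 h after its last session. Both strains carry the w1118 allele of white, and each is 1 stock, obtained from a different stock centre, so the Hsp70 deletions and any other difference in genetic background cannot be told apart. The labels describe the replicates as pools of flies without saying whether they came from separate cultures, so p-values measure the spread between these pools.

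In the Toll pathway, the extracellular protease SPE cleaves the precursor of the cytokine Spätzle (spz), which then binds the receptor Toll (Tl). The adaptor Myd88 and the kinase Pelle (pll) carry the signal to Cactus (cact), an inhibitor that holds the NF-κB factors Dorsal (dl) and Dif in the cytoplasm until it is degraded. In the IMD pathway, peptidoglycan receptors signal through the adaptor Imd to the NF-κB factor Relish (Rel), which is made as a precursor and activated by cleavage. In adult flies both pathways are best known from fat body and hemocytes, where they switch on antimicrobial peptide genes, and Toll signalling also patterns the embryo. Much of this control acts on proteins, which the RNA levels given below do not measure.

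The libraries held 21955858 to 30076080 counts at days 7 and 23 and 35144736 to 39313671 at day 47, so age at day 47 and depth cannot be told apart. Of the 12 leg and body muscle markers listed, 12 had a median of at least 1 CPM (the count after division by the scaled library size), against 6 of 8 leg sensory markers, among which Gr68a had a median of 0. The fat body list had a median of at least 1 CPM for 7 of the 7 genes found (8 listed) and the hemocyte list for 7 of 8. Whether these reads came from fat body and hemocytes within the legs was not tested. Markers of other tissues exceeded 10 times the median of the 40 libraries in 5 libraries for testis, 3 for photoreceptors, 6 for accessory gland and 2 for gut, the last both w1118 pools of day 47. The accessory gland sum was highest in the third exercised w1118 pool, at 1364 CPM, and next in the second trained Hsp70-null pool, at 721 CPM. Summed over 5 of the deleted genes, w1118 had 1748 counts in its 20 libraries and Hsp70-null had 11, whereas the near-identical copy Hsp70Bb had 1149 and 1283 and is uncertain. In legs as a whole, fewer cells of a type and less RNA per cell cannot be told apart.

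All 10 genes passed the filter on low counts, with 314 to 18424 counts in a library. In the BDGP6.54 annotation each is protein-coding, and values refer to whole genes, summed over exons. Tl (FBgn0262473) lies at 3R:26799041-26842403 on the plus strand, spz (FBgn0003495) at 3R:27064990-27070070 on the minus strand, SPE (FBgn0039102) at 3R:23686255-23688147 on the plus strand and Myd88 (FBgn0033402) at 2R:9302823-9308722 on the minus strand. On the minus strand too, pll (FBgn0010441) lies at 3R:27251131-27253182, cact (FBgn0000250) at 2L:16313036-16326207, imd (FBgn0013983) at 2R:18409796-18413599 and Rel (FBgn0014018) at 3R:9044183-9047977. The NF-κB genes Dif (FBgn0011274, 2L:17413248-17433161) and dl (FBgn0260632, 2L:17436830-17450364) are neighbours on the minus strand, 3668 bases apart. SPE shares 107 exon bases on its own strand with CG18754, so a part of its reads is uncertain. The annotated gene models hold 1 transcript for SPE and 8 for spz, and isoforms were not separated. Of the 5 genes on 3R, Rel lies nearest to the deleted Hsp70 loci, at 2.91 Mb, and SPE, Tl, spz and pll lie at 11.2, 14.3, 14.6 and 14.7 Mb; whether linked variation moves with the deletions was not tested.

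Per kilobase of exon, the level ran over a wide range from the protease to the kinase. SPE had the highest level, with a mean of 224.9 CPM per kilobase over the 40 libraries and a range of 124 to 314. Rel followed with 77.1 and cact with 65.9, and this pair overlapped, Rel being above cact in 25 of 40 libraries. The next level was shared by spz (38.7), Myd88 (34.0), dl (32.6) and Dif (29.1 CPM per kilobase), whose ranges overlapped between neighbours. The lowest levels were those of imd (14.7), the receptor gene Tl (10.3) and pll (9.03 CPM per kilobase), with Tl above pll in 29 libraries. Between neighbours in this order, the library ranges were separate only between cact and spz and between Dif and imd. The inhibitor and the factors it binds were close to balance in RNA: cact divided by the sum of dl and Dif per kilobase was 1.07 ± 0.0799 (SD, n = 40 libraries), with a lowest value of 0.913 and a highest of 1.21. In legs dl was the more abundant of its pair in most libraries, with Dif at 0.899 times dl on average and between 0.663 and 1.08 times. Both ratios depend on the lengths used, which join all annotated exons of a gene, and the isoforms in use were not determined.

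**Figure D1:**
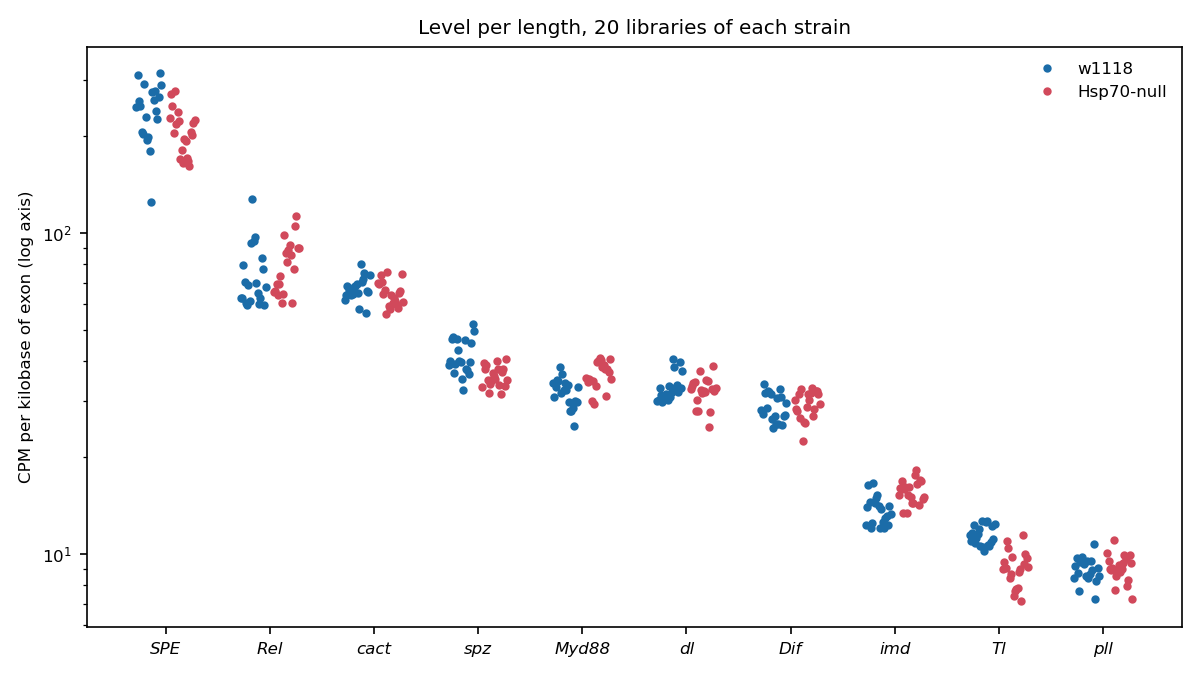
Level of each gene in CPM per kilobase of annotated exon, on a log axis, with 1 point for each library of w1118 and of Hsp70-null (20 each). SPE sits highest with a mean of 224.9, and pll and Tl lowest with 9.03 and 10.3.

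From group to group the levels of most of these genes moved little. The highest group mean was 1.14 times the lowest for pll, 1.21 times for Dif and 1.23 times for cact, with dl between the first and second of these. Rel had the widest span, 1.65 times, followed by SPE at 1.57 and Tl at 1.52 times. Within groups the median coefficient of variation was between 5.04% for cact and 11.2% for SPE.

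**Figure D2:**
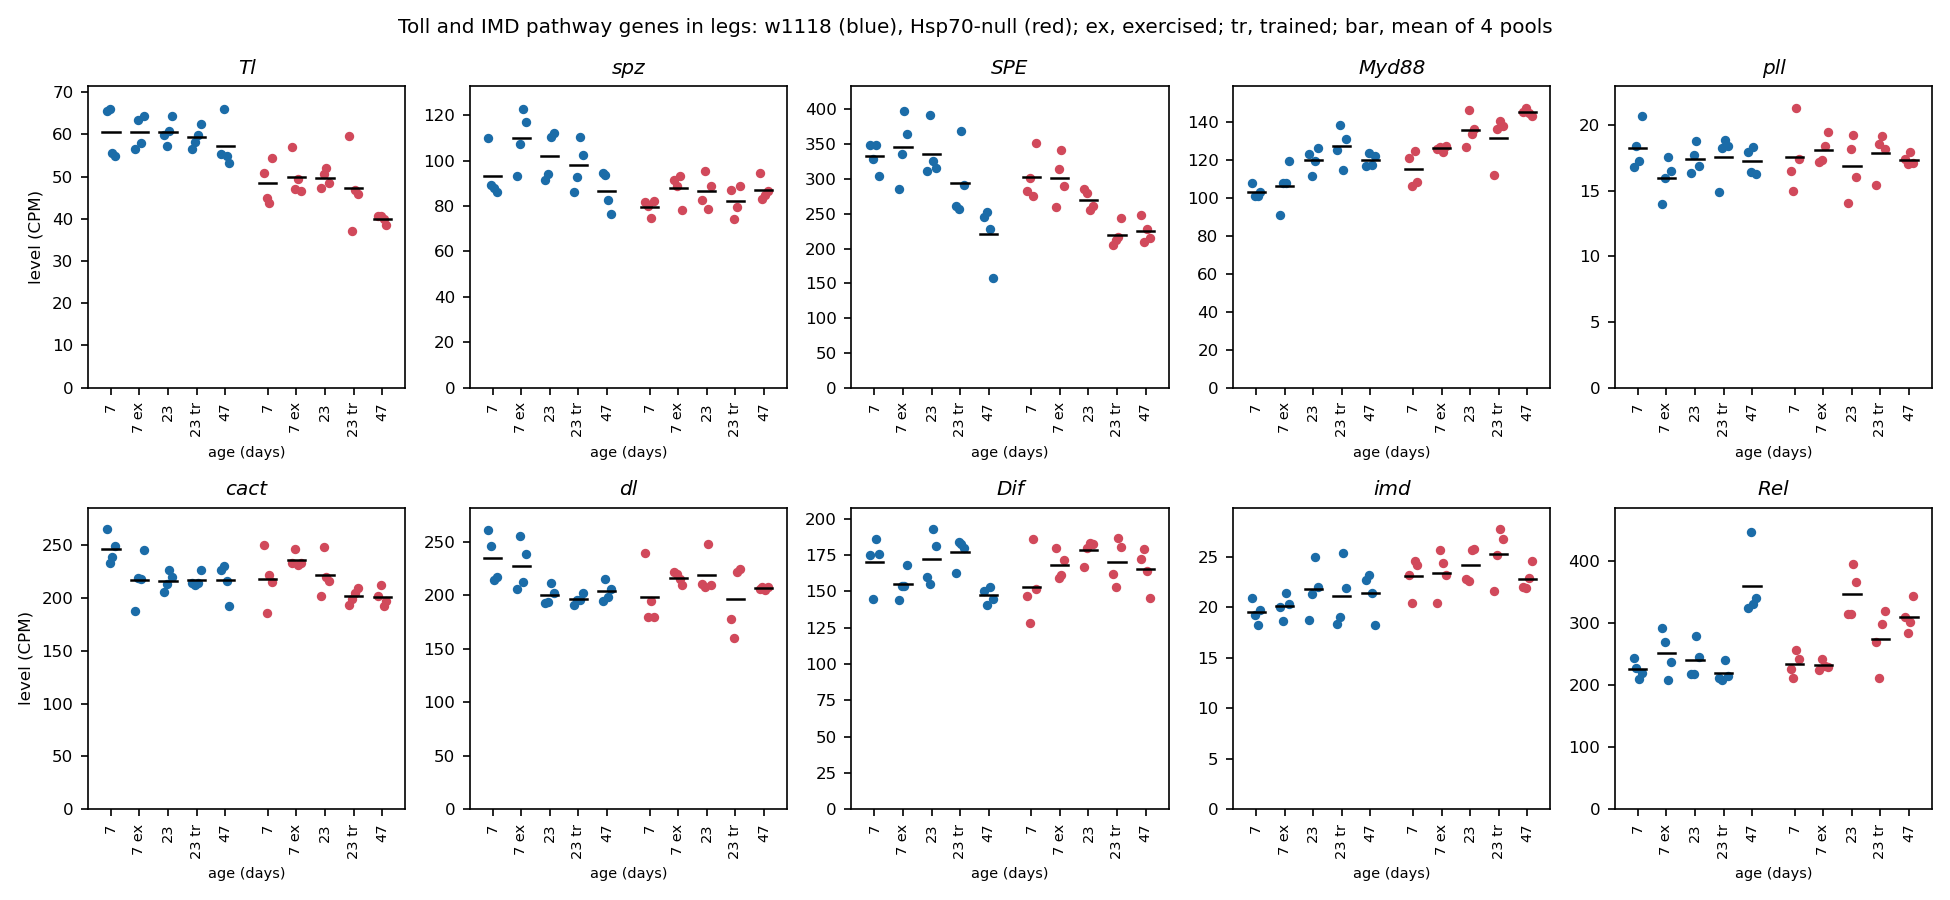
Level of each gene (CPM) in each pool, by age and treatment, for w1118 and Hsp70-null, with a bar at the mean of 4 pools. Tl is lower in Hsp70-null in every condition, and Rel is raised in w1118 at day 47 and in Hsp70-null at days 23 and 47.

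The first question is how the Hsp70-null strain differed from w1118 under the same condition. Between 2 and 3 of the 10 genes passed the test (edgeR quasi-likelihood test, Benjamini-Hochberg adjusted p under 0.05) in each of the 5 matched conditions, and only Tl passed in all 5. At day 7 it was 2 genes, both lower in Hsp70-null, where 25.8% of all tested features were called and 9.99% were lower. At day 23 it was 2 genes with 17.8% of all features called, and at day 47 it was 2 genes with 19.4%. Among exercised flies 3 genes passed, 2 of them lower, with 20.2% of all features called and 11.2% lower. Among trained flies 3 passed, again 2 of them lower, with 15.6% called and 7.17% lower. With only 10 genes such shares are coarse, and whether they differ from those of the whole table was not tested. Their median log2 fold change was −0.14 at day 7, against 0.01 over all features, and in the other conditions lay between −0.03 among trained flies and 0.04 at day 23, against −0.01 over all features in both. The 5 comparisons share no library, so their mean could be tested too, a contrast added after the separate values had been seen. For that mean 5 of the 10 genes passed, 2 higher and 3 lower, with 41.8% of all features called (21.1% higher and 20.7% lower).

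Tl, the receptor gene, was lower in Hsp70-null at every age and treatment. At day 7 it was at 65.6, 65.9, 55.7 and 54.9 CPM in w1118 against 50.8, 45.0, 43.7 and 54.4 CPM for Hsp70-null, without overlap (log2 fold change −0.32, SE 0.09, adjusted p = 0.015, edgeR). At day 23 the w1118 pools had 59.7, 57.2, 60.7 and 64.3 CPM and the Hsp70-null pools 47.4, 50.6, 52.1 and 48.5 CPM, again apart (log2 fold change −0.28, SE 0.09, adjusted p = 0.0332). The gap was widest at day 47, where w1118 had 55.3, 66.0, 54.9 and 53.1 CPM and Hsp70-null 40.7, 40.6, 40.1 and 38.6 CPM (log2 fold change −0.52, SE 0.09, adjusted p = 0.000113). The 4 aged Hsp70-null pools lay close together, each below every w1118 pool of any group, and the second w1118 pool stood above its own group. Exercised pools had 56.6, 63.5, 58.0 and 64.5 CPM in w1118 against 57.0, 47.0, 49.3 and 46.6 CPM for Hsp70-null, where 1 Hsp70-null pool reached into the w1118 range (log2 fold change −0.28, SE 0.09, adjusted p = 0.0364). Trained pools had 56.4, 58.3, 59.9 and 62.5 CPM and 59.6, 37.2, 46.9 and 45.8 CPM, and again 1 Hsp70-null pool lay among the w1118 pools (log2 fold change −0.32, SE 0.09, adjusted p = 0.0164). Over all 40 libraries, 19 of the 20 Hsp70-null pools were below the w1118 median of 59.0 CPM, and the mean strain difference was −0.35 (SE 0.04, edgeR adjusted p = 3.36e-08).

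The lower Tl level at day 47 and in the mean of the 5 conditions was called in every setting and every fit without a library. The 3 libraries with photoreceptor markers, the fourth Hsp70-null pool of day 7 and the first ones of the exercised and trained Hsp70-null groups, each had the highest Tl level of their group. Without them the log2 fold change was −0.38 at day 7, −0.35 among exercised and −0.45 among trained flies, all called (adjusted p = 0.00103, 0.00286 and 0.000153, edgeR). The second trained Hsp70-null pool, marked by accessory gland RNA, had the lowest Tl level of its group. The calls other than day 47 and the mean each failed without certain single libraries, and in 2 or 3 of 12 other settings. For day 7, leaving out in turn w1118 day 7 libraries 1 and 2 and Hsp70-null day 7 library 2 gave adjusted p-values of 0.0594, 0.0581 and 0.0616, in that order. For day 23, leaving out in turn w1118 day 23 libraries 1, 3 and 4 and Hsp70-null day 23 libraries 1, 2 and 4 gave adjusted p-values of 0.0553, 0.0676, 0.0944, 0.0891, 0.0573 and 0.0839, in that order. Among exercised flies, leaving out in turn w1118 exercised libraries 2 and 4 and Hsp70-null exercised libraries 2, 3 and 4 gave adjusted p-values of 0.0805, 0.0841, 0.0992, 0.0848 and 0.112, in that order. Among trained flies, leaving out in turn w1118 trained library 4 and Hsp70-null trained library 2 gave adjusted p-values of 0.0588 and 0.113, in that order. At day 7 the call was also lost without the libraries with testis markers, with testis and gut marker sums in the fit and with the compared groups alone (adjusted p 0.0566 to 0.0831). At day 23 it was lost without the filter, without the testis-marked libraries and with fat body and hemocyte sums (0.0632 to 0.0753). The exercised call was lost with testis and gut sums (0.298) and with fat body and hemocyte sums (0.0529). The trained call was lost without the filter (0.0581), with the compared groups alone (0.24) and without the libraries with accessory gland markers (0.133). The sign was the same in all of these fits. Beside Tl, 2 of its 7 tested paralogs, 18w and Tollo, which encode other Toll-family receptors, were also lower in Hsp70-null at days 7 and 23. Over all features 25.8% were called at day 7 (9.99% lower) and 17.8% at day 23. Among exercised and among trained flies 1 paralog each was lower, with 20.2% and 15.6% of all features called. At day 47, where the Tl gap was widest, 0 of the 7 were called (19.4% of all features) and 4 had a positive fitted difference. Another paralog, Toll-9, was higher at day 7 at very low levels (mean 0.196 CPM against 0.0116 CPM in w1118). In the strain mean 18w had a log2 fold change of −0.25 (SE 0.04, edgeR adjusted p = 3.23e-06) and Tollo −0.31 (SE 0.05, adjusted p = 6.75e-06), while Toll-7 was higher (0.21, SE 0.07, adjusted p = 0.01).

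The ligand gene spz and the gene of its activating protease, SPE, were lower in Hsp70-null in 4 of the 5 conditions each, and close to w1118 at day 47. For spz, the exercised pools had 93.5, 107, 123 and 117 CPM in w1118 against 91.5, 89.1, 93.3 and 78.4 CPM for Hsp70-null, the highest Hsp70-null pool just below the lowest w1118 pool (log2 fold change −0.32, SE 0.09, adjusted p = 0.0141, edgeR). At day 7 spz was also without overlap, at 86.2 to 110.1 CPM against 74.8 to 82.2 CPM, but did not pass (adjusted p = 0.0695). At day 47 its strain difference was 0.01, with a 95% interval of −0.18 to 0.20. In the mean of the 5 conditions spz was lower, with a log2 fold change of −0.21 (SE 0.04, adjusted p = 0.000135), in every setting tried. The exercised call rested on 2 libraries: leaving out in turn w1118 exercised library 3 and Hsp70-null exercised library 4 gave adjusted p-values of 0.0619 and 0.0754, in that order. Without w1118 day 23 library 1 spz passed at day 23 (adjusted p = 0.0471), and without w1118 trained library 1 it passed among trained flies (0.0366). With testis and gut sums in the fit the exercised call was lost (0.0739). The third exercised w1118 pool, highest for spz, also had the highest accessory gland sum of all libraries, and without the 6 libraries with such markers the exercised call was kept. In 4 of 12 other settings spz passed at day 23 (0.0324 to 0.0399), and in 2 among trained flies (0.0304 and 0.0484).

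SPE passed among trained flies, with 262, 257, 368 and 291 CPM in w1118 against 205, 212, 217 and 245 CPM for Hsp70-null (log2 fold change −0.42, SE 0.12, adjusted p = 0.0153, edgeR). Each trained Hsp70-null pool was below each trained w1118 pool, and the third w1118 pool stood highest. Leaving out in turn w1118 trained library 3 and Hsp70-null trained library 1 gave adjusted p-values of 0.12 and 0.0523, in that order. At day 23 without training SPE was also without overlap, 311 to 392 CPM against 256 to 285 CPM, at an adjusted p of 0.0753, and passed there in 2 of 12 other settings (0.0408 with DESeq2 and 0.0447 under the stricter count filter). The trained call was lost in 3 of 12 other settings (0.0524 to 0.074), with the compared groups alone, without the accessory gland libraries and with fat body and hemocyte sums. At day 47 the strains overlapped, with 246, 252, 228 and 158 CPM in w1118 against 248, 209, 229 and 215 CPM for Hsp70-null, a difference of 0.03 with a 95% interval of −0.22 to 0.28. In the strain mean SPE had a log2 fold change of −0.21 (SE 0.05, adjusted p = 0.00231), which was 0.0886 with the fat body and hemocyte marker sums in the fit.

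Myd88, the adaptor gene next to the receptor, went the other way and was higher in Hsp70-null in 5 of 5 conditions, by little among trained flies. At day 47 it was at 117, 123, 117 and 122 CPM in w1118 against 145, 147, 145 and 143 CPM for Hsp70-null, well apart (log2 fold change 0.28, SE 0.07, adjusted p = 0.0036, edgeR), and this call held in every setting and without any 1 library. Exercised pools had 90.7, 108, 108 and 119 CPM in w1118 against 126, 127, 124 and 127 CPM for Hsp70-null (log2 fold change 0.24, SE 0.07, adjusted p = 0.0109). The first exercised w1118 pool, which carried testis RNA, was the lowest, and without w1118 exercised library 1 the adjusted p was 0.0784. This call was lost in 6 of 12 other settings (0.062 to 0.316), among them those that left out the libraries with testis or accessory gland markers and both fits with marker sums. At day 7, where Myd88 did not pass, it did in 6 of 12 other settings (0.0279 to 0.0445). At day 23 the pools were apart as well, 112 to 126 CPM against 127 to 146 CPM, without passing (adjusted p = 0.0739), except with DESeq2 (0.0317) and without the photoreceptor libraries (0.0494). Among trained flies the strains overlapped, with a log2 fold change of 0.05, a 95% interval of −0.09 to 0.19 and an adjusted p of 0.702 (edgeR). Averaged over the conditions, the log2 fold change was 0.18 (SE 0.03, adjusted p = 1.1e-05), and 17 of 20 Hsp70-null pools were above the w1118 median of 117 CPM. The kinase gene pll passed in no strain comparison. Its pools lay between 13.98 and 20.7 CPM in w1118 and between 14.1 and 21.3 CPM in Hsp70-null, and its mean strain difference was 0.02 with a 95% interval of −0.07 to 0.11.

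The inhibitor gene cact and the factor genes dl and Dif showed little difference between the strains. The exception was dl at day 7, at 261, 246, 214 and 217 CPM in w1118 against 239, 179, 194 and 179.7 CPM for Hsp70-null (log2 fold change −0.24, SE 0.09, adjusted p = 0.0459, edgeR). The groups overlapped through the first Hsp70-null pool, and the call held in only 3 of 12 other settings (0.0522 to 0.221 in the 9 where it was lost). Leaving out in turn w1118 day 7 libraries 1 and 2 and Hsp70-null day 7 libraries 2, 3 and 4 gave adjusted p-values of 0.158, 0.106, 0.201, 0.0752 and 0.133, in that order. No strain difference of cact or Dif passed, including cact among trained flies, where 213 to 226 CPM in w1118 and 194 to 209 CPM in Hsp70-null did not overlap (adjusted p = 0.358). Their lowest adjusted p-values were 0.0729 and 0.212 at day 7. Without Hsp70-null day 7 library 1, cact passed at day 7 (adjusted p = 0.0156), as it did without the accessory gland libraries (0.0439), and without library 3 of that group, Dif passed (0.0266). Over the 5 conditions the mean differences were −0.05 for cact, −0.03 for dl and 0.02 for Dif, with 95% intervals of −0.11 to 0.02, −0.12 to 0.05 and −0.06 to 0.11. With fat body and hemocyte sums in the fit, dl passed as lower in this mean (−0.20, adjusted p = 0.00705).

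In the IMD pathway, the adaptor gene imd was higher in Hsp70-null in 5 of 5 conditions by a small amount. At day 7 it was at 20.9, 19.2, 18.3 and 19.7 CPM in w1118 against 23.2, 20.4, 24.6 and 24.2 CPM for Hsp70-null, with 1 Hsp70-null pool inside the w1118 range. The largest difference was among trained flies, 18.3, 19.0, 25.3 and 21.9 CPM against 21.6, 25.1, 27.7 and 26.7 CPM, with a log2 fold change of 0.26. None of the 5 conditions passed alone (adjusted p 0.0625 at day 7 and 0.0681 among trained flies, edgeR), but their mean did (log2 fold change 0.19, SE 0.04, adjusted p = 0.000418). Under other settings imd did pass at day 7 in 8 of 12 (0.0131 to 0.0473), with DESeq2 and the replicate block among them, and among trained flies in 5 of 12 (0.0224 to 0.0473). Among exercised flies it passed without the photoreceptor libraries (0.0493). Of the 20 Hsp70-null pools 18 were above the w1118 median of 20.6 CPM. Leaving out Hsp70-null day 7 library 2 gave an adjusted p of 0.0482 at day 7, and leaving out w1118 trained library 3 or Hsp70-null trained library 1 gave 0.0126 and 0.0244 among trained flies. Summed hemocyte markers were apart between strains in 2 of the 5 conditions, at 935 to 1137 CPM in exercised w1118 pools against 1221 to 1337 CPM in exercised Hsp70-null pools, and at 726 to 817 against 829 to 1009 CPM at day 47. With the fat body and hemocyte sums in the fit, the mean difference of imd was 0.14 (adjusted p = 0.132).

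Rel, the NF-κB gene of the IMD pathway, passed between the strains at day 23 and among trained flies. At day 7 the strains overlapped, 211 to 244 CPM in w1118 and 211 to 256 CPM in Hsp70-null, with a difference of 0.05 and a 95% interval of −0.18 to 0.28. At day 23 it was higher in Hsp70-null, at 315, 315, 396 and 367 CPM, than in w1118, at 219, 219, 279 and 246 CPM, without overlap (log2 fold change 0.53, SE 0.11, adjusted p = 0.000778, edgeR). This call held in 12 of 12 other settings and without any 1 library. Among trained flies Rel was at 212, 209, 240.0 and 215 CPM in w1118 against 270.0, 212, 299 and 319.7 CPM for Hsp70-null, where the second pool, marked by accessory gland RNA, was as low as the w1118 pools (log2 fold change 0.33, SE 0.11, adjusted p = 0.0448). That call held in 5 of 12 settings and was lost in 7 (0.0506 to 0.392, the highest with fat body and hemocyte sums). Leaving out in turn w1118 trained libraries 1, 2 and 4 and Hsp70-null trained libraries 1, 3 and 4 gave adjusted p-values of 0.0976, 0.112, 0.0955, 0.0674, 0.133 and 0.195, in that order. At day 47 the order was the opposite, 325, 447, 331 and 341 CPM in w1118 against 310.0, 284, 303 and 344 CPM for Hsp70-null, but the pools overlapped and the difference did not pass (log2 fold change −0.22, SE 0.11, adjusted p = 0.194). In the strain mean Rel did not pass (adjusted p = 0.0684); it did without w1118 exercised library 1 (0.0355), Hsp70-null day 7 library 2 (0.0491), w1118 day 23 library 3 (0.0389), Hsp70-null trained library 2 (0.019) or w1118 day 47 library 2 (0.0192), without the accessory gland libraries (0.0303) and with DESeq2 (0.0445).

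**Figure D3:**
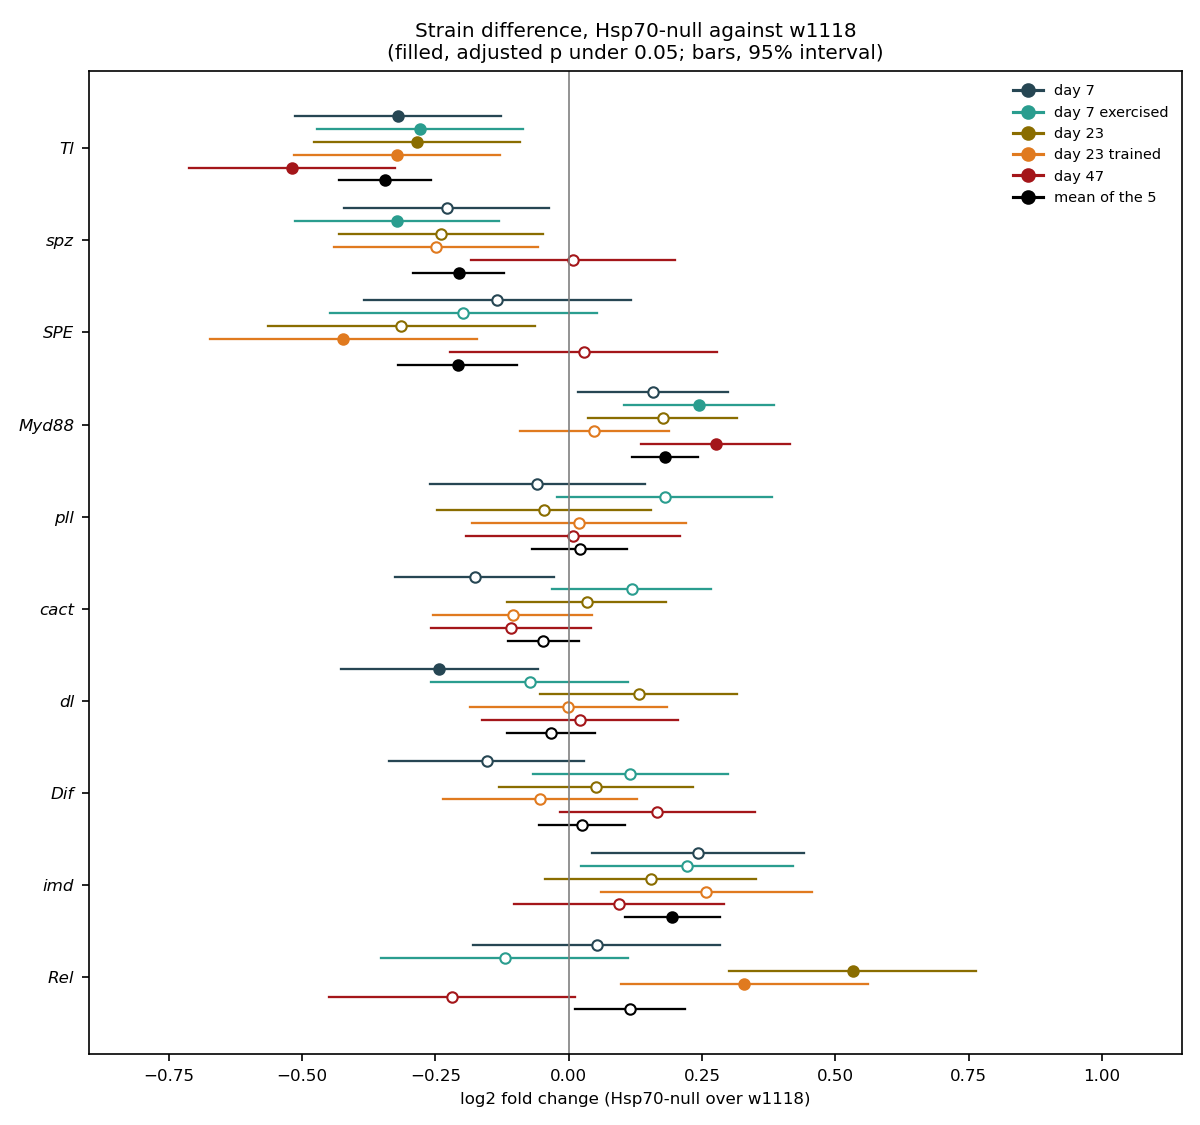
Strain difference of each gene as the log2 fold change of Hsp70-null over w1118, for the 5 matched conditions and their mean, with 95% intervals and filled points for an adjusted p under 0.05. All 5 points of Tl are filled and lie between −0.52 and −0.28, and those of Rel spread from −0.22 to 0.53.

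The second question is what changed with age in untreated flies of each strain; comparisons within a strain share libraries. In w1118 1 of the 10 genes passed between days 7 and 23, where 11.1% of all features were called. Between days 7 and 47 it was 4 genes, 2 higher and 2 lower, with 37.6% of all features called (19.2% and 18.5%), and between days 23 and 47 it was 2 genes, with 13.4%. In Hsp70-null 2 genes passed between days 7 and 23, both higher, with 17.3% of all features called and 7.37% higher. Between days 7 and 47 it was 4, 2 higher and 2 lower, with 28.9% called (14% and 14.9%). Between days 23 and 47 of Hsp70-null 0 genes passed with edgeR (3.6% of all features), and DESeq2 called 1. An unadjusted edgeR p under 0.05 was found there for 2 of the 10 genes and for 2050 of the 12939 tested features. The median log2 fold change of the 10 genes between days 7 and 47 was −0.09 in w1118 and 0.02 in Hsp70-null, against 0.07 and −0.02 over all features.

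Rel rose with age in both strains. In w1118 it was at 244, 228, 211 and 219.8 CPM at day 7 and 219 to 279 CPM at day 23, then at 325 to 447 CPM at day 47, where the second pool stood above the rest (log2 fold change 0.68, SE 0.11, adjusted p = 1.94e-05, edgeR, day 47 over day 7). In Hsp70-null it went from 226, 211, 256 and 243 CPM at day 7 to 315 to 396 CPM already at day 23 (log2 fold change 0.57, SE 0.11, adjusted p = 0.00102). It was still above day 7 at day 47 (log2 fold change 0.41, SE 0.11, adjusted p = 0.00795), and the day 47 and day 23 pools of Hsp70-null overlapped. From day 23 to day 47 Rel rose in w1118 (log2 fold change 0.58, SE 0.11, adjusted p = 0.000525), while the fitted value in Hsp70-null was −0.17 with a 95% interval of −0.40 to 0.06. These 4 calls of Rel held in 12 of 12 other settings each and without any 1 library.

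Myd88 was higher in older flies of both strains. In w1118 it went from 108, 101, 101 and 103 CPM at day 7 to 123, 112, 119.5 and 126 CPM at day 23 and 117, 123, 117 and 122 CPM at day 47. Neither older group overlapped day 7 (log2 fold change 0.22, SE 0.07, adjusted p = 0.0339 at day 23, and 0.22, 0.07 and 0.0123 at day 47, edgeR). In Hsp70-null it went from 121, 106, 125 and 108 CPM to 127, 146, 134 and 136 CPM and then 143 to 147 CPM (log2 fold change 0.24, SE 0.07, adjusted p = 0.0201 at day 23). The day 47 call in Hsp70-null (log2 fold change 0.34, SE 0.07, adjusted p = 0.000405) held in every setting and without any 1 library. The day 47 call in w1118 was lost with testis and gut sums in the fit (0.122) and with fat body and hemocyte sums (0.0842). Both sets of sums ended the day 23 calls too, in w1118 (0.059 and 0.133) and in Hsp70-null (0.257 and 0.146), as did fitting the compared groups alone (0.0599 and 0.113), and in Hsp70-null leaving out the testis-marked libraries (0.0777). For day 23 in w1118, leaving out in turn w1118 day 7 libraries 2, 3 and 4 and w1118 day 23 libraries 1, 3 and 4 gave adjusted p-values of 0.093, 0.0865, 0.0737, 0.0852, 0.0684 and 0.0935, in that order. For day 23 in Hsp70-null, leaving out in turn Hsp70-null day 7 library 2 and Hsp70-null day 23 library 2 gave adjusted p-values of 0.096 and 0.0825, in that order.

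SPE fell by day 47 in both strains. In w1118 it was at 348, 328, 349 and 304 CPM at day 7, 311, 392, 327 and 315 CPM at day 23 and 246, 252, 228 and 158 CPM at day 47, the last group below both others. Its log2 fold change was −0.59 from day 7 (SE 0.12, adjusted p = 0.000315, edgeR) and −0.61 from day 23 (SE 0.12, adjusted p = 0.000851). In Hsp70-null it was at 283, 302, 276 and 351 CPM at day 7 and 248, 209, 229 and 215 CPM at day 47 (log2 fold change −0.43, SE 0.12, adjusted p = 0.0098). These 3 calls held without any 1 library, and the one from day 23 was lost when the compared groups were fitted alone (adjusted p = 0.0687). Summed gut markers, all digestive enzymes, moved with age, from 100.1 to 1730 CPM in w1118 at day 7 to 2435 to 27010 CPM at day 47. With the gut and testis sums in the fit, the change of SPE from day 7 to day 47 was −0.33 in each strain, with adjusted p-values of 0.136 in w1118 and 0.0824 in Hsp70-null.

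Tl and cact each had 1 age call. In Hsp70-null Tl fell from 50.8, 45.0, 43.7 and 54.4 CPM at day 7 to 40.7, 40.6, 40.1 and 38.6 CPM at day 47 (log2 fold change −0.28, SE 0.09, adjusted p = 0.0285, edgeR), whereas in w1118 the pools of those ages overlapped (log2 fold change −0.08, 95% interval −0.27 to 0.11). Leaving out in turn Hsp70-null day 7 libraries 1 and 4 and Hsp70-null day 47 libraries 1, 3 and 4 gave adjusted p-values of 0.0664, 0.0996, 0.0518, 0.0615 and 0.0724, in that order. The call was also lost with testis and gut sums in the fit (0.209), with fat body and hemocyte sums (0.126), without the filter (0.152) and without the accessory gland libraries (0.0871). Gut marker sums rose with age here as well, from 195 to 1556 CPM at day 7 to 3001 to 10520 CPM at day 47. From day 23 to day 47 of Hsp70-null Tl was also without overlap, at an adjusted p of 0.0613, and passed in 3 of 12 other settings (0.0119 to 0.0353). In w1118 cact fell from 266, 233, 239 and 249 CPM at day 7 to 227, 231, 216 and 193 CPM at day 47, without overlap (log2 fold change −0.19, SE 0.07, adjusted p = 0.0441), and this call held in 4 of 12 other settings (0.0533 to 0.592 in the 8 where it was lost). Leaving out in turn w1118 day 7 libraries 1, 3 and 4 and w1118 day 47 libraries 3 and 4 gave adjusted p-values of 0.161, 0.0563, 0.09, 0.0881 and 0.194, in that order. Without w1118 day 7 library 2, Dif passed as lower at day 47 in w1118 (adjusted p = 0.0181), as it did in 3 of 12 other settings (0.0276 to 0.0427). DESeq2 also called dl lower at days 23 and 47 (0.049 and 0.0374), cact lower at day 23 (0.0402), and spz and Dif lower from day 23 to day 47 (0.0472 and 0.0432) in w1118. Without Hsp70-null day 7 library 1, dl passed as higher at day 23 in that strain (0.0493; 0.0238 without the accessory gland libraries), and without library 3 of the same group Dif did (0.0117; 0.0492 with the replicate block). Without the testis-marked libraries cact passed as lower from day 7 to day 47 of Hsp70-null (0.0477). Neither spz, pll nor imd passed in any of the age comparisons with the main settings, and without the filter imd was called higher at day 47 in w1118 (0.0346).

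Muscle marker sums fell with age in w1118, from 24500 to 32480 CPM at day 7 to 15330 to 16630 CPM at day 47, and were 21030 to 25890 CPM in Hsp70-null at day 47. Hemocyte sums at day 47 were 726 to 817 CPM in w1118 and 829 to 1009 CPM in Hsp70-null, and fat body sums overlapped between days 7 and 47 in both strains. The part of these shifts in the age and strain differences was not tested beyond the fits with marker sums.

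**Figure D4:**
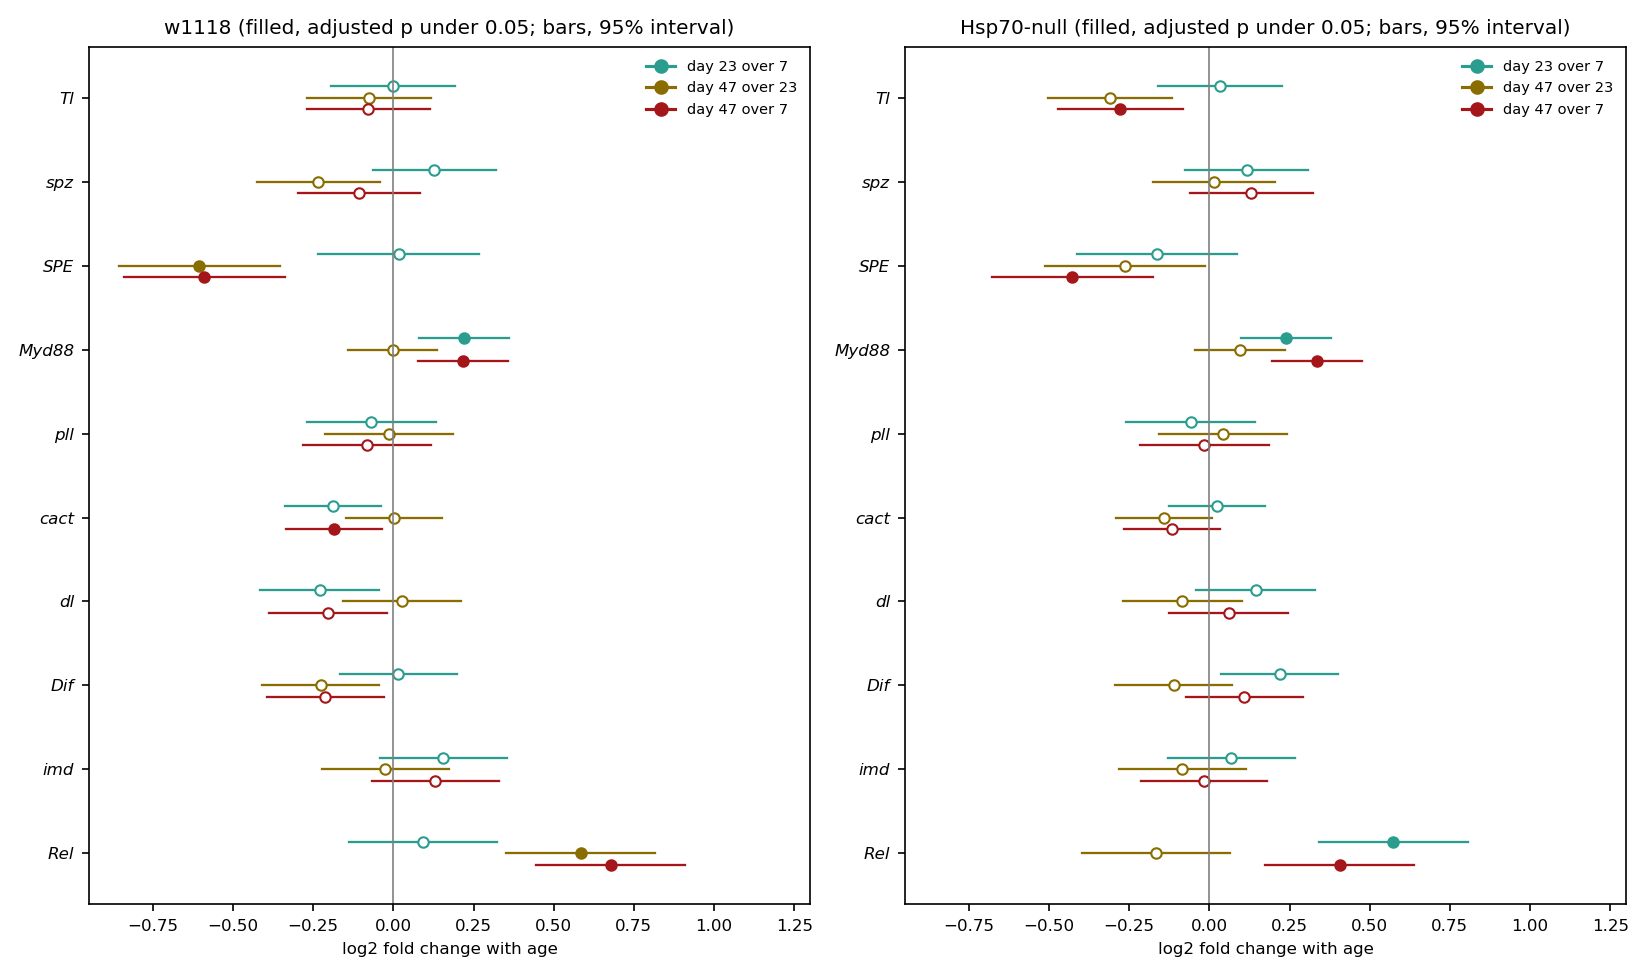
Log2 fold change of each gene between ages in untreated w1118 (left) and Hsp70-null (right), with 95% intervals and filled points for an adjusted p under 0.05. Rel is filled above 0 in 2 of 3 comparisons of each strain, and SPE is filled below 0 at −0.59 and −0.61 in w1118 and at −0.43 in Hsp70-null.

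Whether the age effects differed between the strains was tested as an interaction, and 0 of the 10 genes passed for either age with edgeR or DESeq2. Among all features 0.232% passed for days 7 to 23 and 1.64% for days 7 to 47, and 2 of the 10 genes had an unadjusted p under 0.05 in each. Of the 12939 tested features, 2382 and 2540 had such an unadjusted p, in that order. For days 7 to 23 the lowest adjusted p belonged to Rel, whose rise was 0.48 larger in Hsp70-null on the log2 scale (95% interval 0.15 to 0.81, adjusted p = 0.115), and to dl (0.37, adjusted p = 0.116). For days 7 to 47 it belonged to Dif (0.32, adjusted p = 0.153). The earlier call of the Rel rise in Hsp70-null is thus not shown to differ from w1118 by this test.

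The third question is whether exercise or training changed these genes, and 0 of the 10 passed in either strain with edgeR or DESeq2. After 2 h of exercise at day 7, 0.402% of all features were called in w1118 and 0.0464% in Hsp70-null. An unadjusted p under 0.05 was found for 2132 and 1978 of the 12939 tested features, and for 2 and 0 of the 10 genes. In w1118 these were spz, at 110.1, 89.4, 88.2 and 86.2 CPM before and 93.5, 107, 123 and 117 CPM after (log2 fold change 0.24, SE 0.09, adjusted p = 0.193, edgeR), and cact, at 266, 233, 239 and 249 CPM and 188, 219, 218 and 246 CPM (log2 fold change −0.18, SE 0.07, adjusted p = 0.195). Both pairs of groups overlapped. In exercised Hsp70-null flies all 10 fitted changes lay between −0.01 and 0.14. The exercise effect on cact differed most between strains, 0.29 on the log2 scale (95% interval 0.08 to 0.51, adjusted p = 0.0838), where 8.27% of all features passed the interaction test. It passed without w1118 exercised library 4 (adjusted p = 0.0171) or Hsp70-null day 7 library 1 (0.0123), and without Hsp70-null day 7 library 3 Dif did (0.0269).

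After 19 days of training, 0% of all features were called in w1118 and 0.0464% in Hsp70-null. An unadjusted p under 0.05 was found for 837 and 680 of the 12939 tested features, and for 0 and 2 of the 10 genes. In Hsp70-null these were Rel, at 315, 315, 396 and 367 CPM untrained and 270.0, 212, 299 and 319.7 CPM trained (log2 fold change −0.34, SE 0.11, adjusted p = 0.353, edgeR), and SPE, at 285, 279, 256 and 261 CPM and 205, 212, 217 and 245 CPM (log2 fold change −0.30, SE 0.12, adjusted p = 0.66). The trained and untrained pools of SPE did not overlap, which held for 1.72% of all features, and those of Rel overlapped. In w1118 Rel had a log2 fold change of −0.14 with a 95% interval of −0.37 to 0.10. In the test of a strain difference in the training effect, 0% of all features passed, and the 10 fitted differences lay between −0.20 and 0.10. The 95% intervals of the training effects in Hsp70-null, not adjusted for the number of features, were −0.57 to −0.11 for Rel and −0.55 to −0.05 for SPE.

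Other genes of the pathways, without antimicrobial peptide and Bomanin genes but with the Relish targets PGRP-LB and pirk, give the setting. There were 68 in all, and 61 of them could be tested. In w1118 17 of them rose and 16 fell between days 7 and 47, 54.1% of those tested against 37.6% of all features. In the strain comparisons 18% to 27.9% passed against 15.6% to 25.8% of all features. The list was chosen with earlier results of these data known. The 7 that could not be tested were MstProx, ndl, NT1, snk, sphinx1, sphinx2 and spz6.

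Upstream of spz, genes of recognition proteins and proteases were lower in Hsp70-null in most calls. Of 13 tested, 5 were lower at day 7 and 1 higher, 5 were lower at day 23, and 3 at day 47. Over all features 25.8% were called at day 7 (9.99% lower), 17.8% at day 23 and 19.4% at day 47. The serine protease gene ea (easter), known for cleaving Spätzle in the embryo, had a mean of 26.6 CPM in w1118 against 6.7 CPM for Hsp70-null at day 7, and its log2 fold change lay between −2.16 and −1.83 over the 5 conditions, with the highest adjusted p at 1.19e-12 (edgeR). The gene gd (gastrulation defective), another protease of the embryonic cascade, was lower at a low level, with 1.33 CPM in w1118 against 0.263 CPM for Hsp70-null at day 7. Among trained flies GNBP3, which encodes a sensor of fungal glucans, was at 117 CPM in w1118 against 74.3 CPM for Hsp70-null (log2 fold change −0.65, adjusted p = 7.55e-05). With age, Spn27A, a serpin gene, rose in w1118 (0.53 from day 7 to day 47, adjusted p = 0.00218), and nec, another serpin gene, fell (−0.36, adjusted p = 0.00414).

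Inside the cell, genes around the Toll receptor complex changed in both directions between strains and in 1 direction with age. Of 12 tested, 5 rose and 0 fell between days 7 and 47 in w1118, and likewise 5 and 0 in Hsp70-null. Of all features 19.2% rose and 18.5% fell in w1118, and 14% and 14.9% in Hsp70-null. The lowest adjusted p was that of mop (myopic), whose product acts in endocytic trafficking, from 83.7 to 111 CPM in w1118 (log2 fold change 0.41, SE 0.06, adjusted p = 2.12e-06, edgeR) and from 83.8 to 114.5 CPM in Hsp70-null (0.45, 0.06 and 7.55e-07). The gene cactin, whose product binds Cactus, rose by more, in w1118 from 18.5 to 27.4 CPM (0.57, adjusted p = 0.000478) and in Hsp70-null from 18.6 to 27.4 CPM (0.56, adjusted p = 0.000892). Between strains, lwr, the SUMO-conjugating enzyme gene, was lower in Hsp70-null in all 5 conditions, with a mean log2 fold change of −0.24 (adjusted p = 2.39e-09). Gprk2, a kinase gene, was higher, with a mean of 0.33 (adjusted p = 2.42e-08).

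Along the IMD pathway 4 recognition genes were tested, and 2 of them, PGRP-LC and PGRP-LA, passed as higher in Hsp70-null in all 5 conditions. Over all features 15.6% to 25.8% were called in these conditions. The other recognition genes passed in none of them, and at day 47 only 2 of the 4 had a positive fitted difference. PGRP-LC, the main transmembrane peptidoglycan receptor gene, was at 99.1 ± 4.55 CPM (SD, n = 4) at day 7 in w1118, against 139.7 ± 18.8 CPM for Hsp70-null, and at 105 ± 9.86 and 170.3 ± 26.7 CPM at day 23 (log2 fold change 0.70, SE 0.11, edgeR adjusted p = 9.24e-06). Its pools were without overlap between strains in every condition. Of 11 tested genes of the intracellular IMD pathway other than imd and Rel, 1 was higher and 5 were lower in the strain mean, and of 11 inhibitor genes 4 were higher and 1 lower, with 41.8% of all features called. The higher one, Dredd, the caspase gene whose product cleaves Imd and Relish, differed by a mean log2 fold change of 0.29 (adjusted p = 2.03e-08). Among exercised flies 1 of the 11 intracellular genes was higher and 2 were lower, with 20.2% of all features called. Fadd was lower, at 4.64 CPM in w1118 against 2.66 CPM for Hsp70-null (log2 fold change −0.80, adjusted p = 0.000358, edgeR). Diap2, a ubiquitin ligase gene, was the other lower one (−0.24, adjusted p = 0.00402). Among the inhibitor genes casp (caspar) and dnr1 were higher, by means of 0.37 and 0.40. With age key, the IKKγ gene of the pathway, rose in both strains, from 56.5 to 80.1 CPM in w1118 (0.50, adjusted p = 1.93e-06) and from 53.6 to 77.6 CPM in Hsp70-null (0.53, adjusted p = 1.29e-06). With age Diap2 fell in both strains (−0.34 and −0.23).

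The feedback inhibitors PGRP-LB and pirk, which are themselves targets of Relish, had their highest group means where Rel did. PGRP-LB, an amidase gene, was at 23.4 ± 6.39 CPM at day 23 in w1118, against 51.2 ± 15.3 CPM for Hsp70-null (SD, n = 4), a log2 fold change of 1.13 (SE 0.26, edgeR adjusted p = 0.00159). Its level rose in w1118 from 26.0 CPM at day 7 to 52.7 CPM at day 47 (1.02, adjusted p = 0.00218). The gene pirk rose in w1118 from 20.1 to 51.7 CPM between those ages (1.36, SE 0.33, adjusted p = 0.00152), and its strain difference at day 23 was 0.70 at an adjusted p of 0.154. Of 20 effector genes (antimicrobial peptides and Bomanins), 15 passed as higher at day 23 in Hsp70-null and 0 as lower, where 17.8% of all features were called. In the other conditions 5 were higher and 3 lower at day 7, 2 and 5 among exercised flies, 7 and 0 among trained flies, and 4 and 2 at day 47 (25.8%, 20.2%, 15.6% and 19.4% of all features called). Their summed level was 5308, 7705, 8717 and 10720 CPM in those Hsp70-null pools, above each w1118 pool of any group, and 1042, 1623, 1670 and 1321 CPM in w1118. At day 47, where Rel was highest in w1118, the effector sum there was 2072 to 4055 CPM, against 1490 to 3571 CPM at day 7, so it overlapped. It was above the w1118 sums of day 23, 1042 to 1670 CPM. From day 23 to day 47 of w1118, 7 of the 20 effector genes passed as higher and 1 as lower, where 13.4% of all features were called. From day 7 to day 47 it was 1 higher and 0 lower, with 37.6%.

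**Figure D5:**
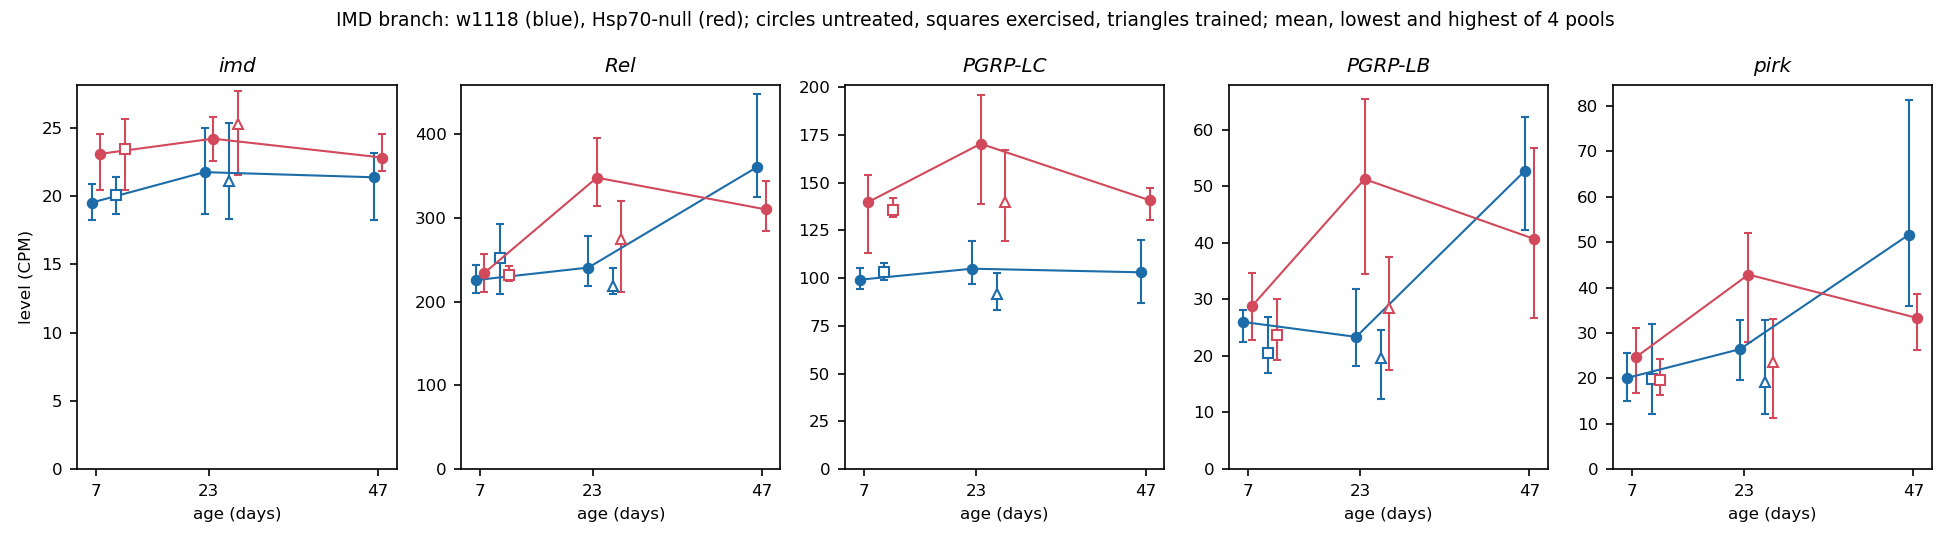
Levels (CPM) of imd, Rel, PGRP-LC, PGRP-LB and pirk by age, as the mean of 4 pools with bars from the lowest to the highest pool, for w1118 and Hsp70-null, untreated, exercised and trained. PGRP-LC is apart between strains at each age, while PGRP-LB is at 51.2 CPM in Hsp70-null against 23.4 CPM for w1118 at day 23.

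As a description over the 40 libraries, each gene was set beside all other tested features by the Pearson correlation of log2(CPM + 1). The libraries share the 10 groups and their scaling, so strain and age enter these values. Rel was most like PGRP-LB (0.82), pirk (0.81) and CG4269 (0.81), and Myd88 most like Dredd (0.87), hfw (0.86) and CG30015 (0.85). For imd they were Cyp6a13 (0.76), Irp-1B (0.76) and PGRP-LC (0.76), and for Tl SPoCk (0.89), sas (0.86) and DIP-lambda (0.86). SPE was most like Ser7 (0.92), CG5390 (0.90) and CG7778 (0.89), and its substrate gene spz most like CG15870 (0.79), yellow-e (0.73) and CG5789 (0.73). For dl they were be (0.85), CAP (0.84) and Ask1 (0.83), for Dif CG8929 (0.82), Xe7 (0.81) and Glt (0.80), for cact CG16772 (0.74), PAN3 (0.73) and tank (0.71), and for pll Phax (0.59), CG1637 (0.57) and CG1673 (0.56). Among the 10 genes themselves the highest values were 0.62 for Tl with spz, 0.61 for spz with SPE and 0.56 for cact with dl, and the lowest was −0.58 for Tl with Myd88.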

How the data were processed

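Polyadenylated RNA of fly legs was sequenced from strand-specific libraries (NEBNext Ultra II Directional kit, per the labels' protocols). The table deposited by the authors holds raw whole-number read counts for 23932 features in 40 libraries. The submitters' processing notes name HISAT2 2.1.0, kallisto 0.44.0 and the build BDGP6, without their roles; the counting tool, its annotation and its treatment of multiply mapped reads are not given in the sources used here. Coordinates, exon lengths and overlaps come from the Ensembl annotation of BDGP6.54, where 23851 of the 23932 features were found by FlyBase identifier.

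The quasi-likelihood F test of edgeR 4.0.16 (R 4.3.3) was used after TMM scaling and an expression filter by group, with all 40 libraries in 1 fit of group means (30 residual degrees of freedom) over 12939 features. Benjamini-Hochberg adjustment ran over all tested features of a comparison, and a call is an adjusted p under 0.05. There were 19 planned comparisons and 1 added afterwards, the mean of the 5 strain differences. CPM divides each count by the TMM-scaled library size in the usual way. Marker medians and marker and effector sums use CPM on the total counts of a library instead, without that scaling. The TMM factors lay between 0.804 and 1.16, so these sums are on a different scale from the gene levels. The standard error of a log2 fold change was taken as its size over the root of F. Intervals cover 95%. The test was also run on simulated data with known changes. Within groups, 60 pairs of libraries differed by more than sampling noise (chi-square per degree of freedom 25.2 to 345).

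The 10 genes, the other gene lists and the marker lists were chosen with earlier results of these data known, so a pattern in antimicrobial genes is no independent support. All 10 genes are named; of each other list, up to 2 genes in each direction with the lowest adjusted p in a comparison may be named, and for each of the 10 the 3 most similar features. Same-numbered libraries of compared groups were treated as unpaired in the main fit. In no comparison did all 4 pairs deviate together (correlation over 0.1 in 0 to 3 of 4 pairs), but a single pair reached 0.584, for training in Hsp70-null. The labels do not say whether such libraries share a batch, which was tried only as a replicate block. Alternatives were other scaling (RLE), DESeq2 1.42.0, other filters, the compared groups alone, robust estimation, a replicate block, leaving out libraries with testis, photoreceptor or accessory gland markers, marker sums as covariates, and leaving out each library in turn; the photoreceptor, accessory gland, and fat body and hemocyte alternatives were chosen after seeing the data. Promoter and protein sequences were not analysed here.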

Additional observations from a re-analysis of the deposited data

Results flagged for a closer look

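In 8 of the 100 combinations of gene and group, 1 pool lay far from the other 3, by a gap that made up most of the range of the group (Dixon's test at the 95% level). Chance flags about 1 group in 20. Of w1118 pools, the second at day 47 was high for both Tl (66.0 CPM, others 53.1 to 55.3) and Rel (447 CPM, others 325 to 341). The first w1118 pool at day 7 was high for spz (110.1 CPM, others 86.2 to 89.4). Among trained w1118 pools, the first was low for pll (14.9 CPM, others 18.2 to 18.9) and the fourth high for cact (226 CPM, others 213 to 215). Of Hsp70-null pools, the first trained one was low for Myd88 (112 CPM, others 136 to 140.3), and it also held the most photoreceptor RNA. The second exercised Hsp70-null pool was high for cact (246 CPM, others 231 to 233). The third Hsp70-null pool at day 23 was high for dl (248 CPM, others 207 to 211). The calls of Rel and Tl at day 47 were kept without the pool in question.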

How the results depend on the processing

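Of 30 called effects, 11 held in all 12 other settings and in every fit without 1 library, and 0 reversed. They were Rel between strains at day 23, Tl and Myd88 between strains at day 47, 4 age effects of Rel, the day 47 rise of Myd88 in Hsp70-null, and Tl, spz and Myd88 in the strain mean. The number of the 10 genes called moved as follows, and why it moved was not tested. Fits of the compared groups alone gave 1 for the strains at day 7, 0 for the strains after training, 0 for w1118 days 7 to 23, 1 for w1118 days 23 to 47, 1 for Hsp70-null days 7 to 23 and 1 for Hsp70-null days 23 to 47. DESeq2 gave 5 for the strains at day 23, 5 after training, 3 for w1118 days 7 to 23, 4 for w1118 days 23 to 47 and 1 for Hsp70-null days 23 to 47. Without the filter there were 1 for the strains at day 23 and 1 after training, and with at least 10 counts in every library 4 for the strains at day 23. With testis and gut sums in the fit there were 0 for exercised strains, 0 for w1118 days 7 to 23, 1 for w1118 days 7 to 47, 1 for Hsp70-null days 7 to 23 and 2 for Hsp70-null days 7 to 47. With fat body and hemocyte sums there were 1 each for the strains at day 23, after exercise and after training, 0 for w1118 days 7 to 23, 2 for w1118 days 7 to 47 and 1 for Hsp70-null days 7 to 23. Without libraries with testis markers Hsp70-null days 7 to 23 gave 1, without those with photoreceptor markers Hsp70-null days 23 to 47 gave 1, and without those with accessory gland markers the strains after training gave 1.

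Leaving out each library in turn gave 0 to 3 calls for the strains at day 7, 1 to 2 at day 23, 2 to 2 at day 47, 1 to 3 after exercise, 1 to 3 after training and 5 to 6 for their mean. For w1118 it gave 0 to 1 (days 7 to 23), 3 to 5 (days 7 to 47) and 2 to 2 (days 23 to 47), and for Hsp70-null 1 to 3, 3 to 4 and 0 to 0. The strain difference in the exercise effect had 0 to 1, and all other comparisons 0 to 0. With the replicate number as a block, the number of calls was 2, 2, 2, 3 and 3 for the strains (day 7, day 23, day 47, exercised, trained), 5 for their mean, 1, 4 and 2 for ages in w1118, 3, 4 and 0 in Hsp70-null, and 0 for exercise, training and interactions. The block ended the calls of dl at day 7, Rel after training and cact between days 7 and 47 of w1118 (adjusted p = 0.0562, 0.0553 and 0.0533). Under RLE scaling the median over all features stayed within 0.06 of 0. Each of these genes had 314 counts or more in every library, with 4 pools per group. Whether library depth or the number of pools limits the calls or the width of the intervals was not tested.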
